A study of Homo sapiens with 18 samples.

Results

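The 54 genes described here carry the symbols ZBTB, ZSCAN, ZKSCAN, ZFP, KLF, SP or PRDM followed by a number, ZFP36 left out, and were taken by symbol from a table of 8996 genes. They fall into 20 ZBTB genes, 14 SCAN-domain genes (8 ZSCAN and 6 ZKSCAN), 7 KLF, 4 SP, 4 PRDM and 5 ZFP genes. ZFP is a naming group and not a family. No measured value was used to choose them. All but 1 code for C2H2 zinc fingers by a sequence match. The exception, ZBTB8OS, is named for its place opposite ZBTB8A, codes for archease, a cofactor of the tRNA ligase, and held 0 finger matches.

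The values come from SLAM-seq of wild-type HEK293T cells, a human embryonic kidney line. STM2457, an inhibitor of METTL3, was given for 3 h to 9 of the samples, and its solvent DMSO to the other 9. Labelling with 100 µM 4-thiouridine (s4U) followed for 0, 90 or 180 min, and every one of the 6 combinations has 3 samples (18 together). METTL3 is the enzyme that places most N6-methyladenosine (m6A) on mRNA, and s4U built into new RNA is read as C in place of T after alkylation. The table gives 1 fitted half-life and 1 fitted synthesis rate per gene and treatment, without values per sample, intervals or counts. Depth is therefore unknown, no test can be made, and each difference is one between 2 fitted values. The time unit is not named and hours are inferred from the values.

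C2H2 zinc fingers are small folds that grip a zinc ion and read a few bases of DNA each. ZBTB proteins join them to a BTB domain, which pairs the proteins and recruits corepressors. ZSCAN and ZKSCAN proteins join them to a SCAN domain, another pairing module, and the ZKSCAN proteins add a KRAB repressor domain. KLF and SP factors share 3 fingers that bind GC-rich boxes and CACCC elements, and PRDM proteins carry a domain related to histone methyltransferases. Many mRNAs of transcription factors turn over fast. m6A is placed within a motif called DRACH, which is A, G or T, then A or G, then AC, then A, C or T, mostly away from exon junctions, and m6A is known to speed mRNA decay.

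Coding stretches of 9 of these mRNAs are shown as examples, and no half-life result below rests on them. Each is the 60-nt stretch with the most DRACH motifs at least 100 nt from a junction (far motifs), read 5′ to 3′ on the mRNA strand in GENCODE release 29, with the motifs in capitals, where adjacent motifs run together. Of all 60-nt tiles of such coding sequence, 65.1% hold at least 1 motif, and a motif is not a measured m6A site. The first 6 belong to mRNAs with a longer half-life in STM2457 than in DMSO: SP1 with 36 far motifs in all, PRDM4 with 21, ZBTB24 with 32, ZBTB2 with 39, ZKSCAN2 with 45 and KLF12 with 9. The last 3 belong to KLF6 with 10 far motifs, whose half-life was close in both treatments, and to SP2 with 12 and ZSCAN9 with 10, whose half-lives were shorter in STM2457.
SP1 (GRCh38 chr12:53382678-53382737, plus strand): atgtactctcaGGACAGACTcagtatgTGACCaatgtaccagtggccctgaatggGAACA
PRDM4 (GRCh38 chr12:107734254-107734313, minus strand): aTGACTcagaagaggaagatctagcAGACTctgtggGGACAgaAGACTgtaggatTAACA
ZBTB24 (GRCh38 chr6:109481417-109481476, minus strand): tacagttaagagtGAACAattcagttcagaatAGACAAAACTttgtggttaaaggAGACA
ZBTB2 (GRCh38 chr6:151365698-151365757, minus strand): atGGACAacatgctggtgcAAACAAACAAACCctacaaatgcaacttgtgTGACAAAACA
ZKSCAN2 (GRCh38 chr16:25256922-25256981, minus strand): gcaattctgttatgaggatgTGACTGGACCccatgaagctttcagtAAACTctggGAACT
KLF12 (GRCh38 chr13:73846215-73846274, minus strand): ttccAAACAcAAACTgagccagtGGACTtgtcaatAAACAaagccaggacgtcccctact
KLF6 (GRCh38 chr10:3781961-3782020, minus strand): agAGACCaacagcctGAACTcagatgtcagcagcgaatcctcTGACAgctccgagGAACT
SP2 (GRCh38 chr17:47916862-47916921, plus strand): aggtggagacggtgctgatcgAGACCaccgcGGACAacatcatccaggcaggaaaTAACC
ZSCAN9 (GRCh38 chr6:28227144-28227203, plus strand): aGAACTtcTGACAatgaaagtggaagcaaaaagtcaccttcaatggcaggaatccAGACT
The ZBTB2 stretch holds 6 motifs, a density reached in the best stretch of 2.17% of 5796 genes. PRDM4 has 5, reached by 10.0%. SP1, ZBTB24, ZKSCAN2, KLF12 and KLF6 have 4 each, reached by 28.0%, while SP2 and ZSCAN9 have 3, reached by 51.7%. KLF6, with no longer half-life, thus has as dense a stretch as SP1. The 9 genes were picked by hand with their half-life ratios known, so the stretches do not stand for the 54 and are no unselected contrast. ZKSCAN1, with a shorter half-life in STM2457, has 5 motifs in its best stretch, as has KLF5, whose half-life was close in both treatments. ZFP91, with a longer half-life, has 2. The shares above are not matched for the length of coding sequence searched. The longest coding exon had a median of 955.5 nt in the 54 genes, beside 267 nt over all genes.

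Most of the 54 mRNAs were short-lived in both treatments. Their median half-life was 2.10 h in STM2457 and 1.63 h in DMSO, beside 5.39 h in STM2457 and 5.61 h in DMSO over all genes. The shortest quartile of the table held 36 of the 54 in STM2457 and 46 in DMSO. Half-lives under 2 h were fitted for 25 in STM2457 and 35 in DMSO, and 10 in STM2457 but only ZBTB8OS in DMSO lay above the table's median.

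The half-life was longer in STM2457 for 36 of the 54 by any amount. It was longer past 1.5-fold, the size rule used here for longer-lived and shorter-lived, for 24 (44.4%), shorter past 1.5-fold for 5 (9.26%) and within that range for 25. The background over the 8996 genes was 28.5% longer-lived and 24.9% shorter-lived. The median log2 ratio of STM2457 over DMSO was 0.44, with quartiles of -0.08 and 1.13, beside -0.01 with quartiles of -0.58 and 0.73 over all genes. Beside genes that are like them in other ways, the same shares lie closer together. Among the 2135 genes with a DMSO half-life from 1 to 3 h, 41.1% were longer-lived and 6% shorter-lived, with a median log2 ratio of 0.36, while the 40 members in that range counted 19 longer-lived and 1 shorter-lived, with a median of 0.51. Among the 2162 genes with 10 or more far coding motifs, 45.7% were longer-lived and 10.5% shorter-lived, with a median of 0.48, while the 48 members among them counted 22 and 4, with a median of 0.47. With both conditions, 56.7% of 1084 genes were longer-lived and 1.75% shorter-lived, with a median of 0.71. The 36 members that meet both counted 17 longer-lived and 1 shorter-lived, with a median of 0.51. Beside genes alike in both respects, the members' share of longer-lived mRNAs (47.2%) was thus not above the 56.7% of the set that includes them. The difference was not tested.

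**Figure D1:**
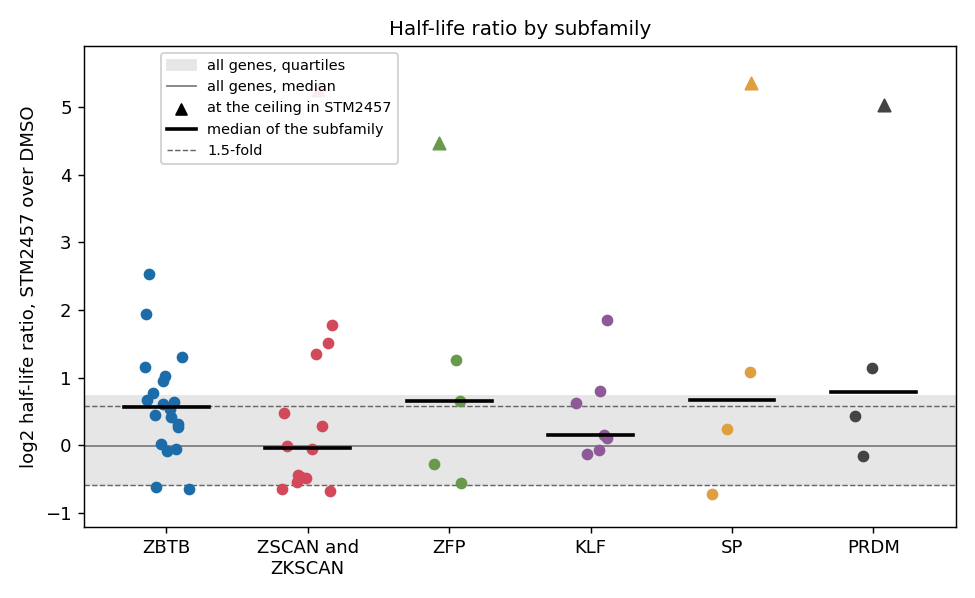
Log2 ratio of half-life, STM2457 over DMSO, for each of the 54 genes by subfamily. Black bars are subfamily medians, triangles are genes at the ceiling of 69.3 h in STM2457, dashed lines mark 1.5-fold, and the grey band spans the quartiles of all genes from -0.58 to 0.73. The SCAN-domain genes centre near 0 and the ZBTB genes at 0.57.

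The subfamilies kept a similar order in both treatments, apart from the SCAN-domain genes, which were lowest in STM2457 but above ZBTB and KLF in DMSO. In STM2457 the median half-lives ran from 4.16 h (ZFP) through 3.70 h (SP), 3.06 h (PRDM), 2.10 h (ZBTB) and 1.92 h (KLF) to 1.84 h (SCAN-domain). In DMSO they ran from 2.91 h (ZFP) through 1.99 h (SP), 1.69 h (PRDM), 1.60 h (SCAN-domain) and 1.42 h (ZBTB) to 1.24 h (KLF). Each pair of subfamilies overlapped in its values in STM2457. In DMSO, each pair overlapped except PRDM, whose longest was 2.12 h, and ZFP, whose shortest was 2.49 h. Median log2 ratios were 0.79 for PRDM, 0.66 for SP, 0.65 for ZFP, 0.57 for ZBTB, 0.15 for KLF and -0.04 for the SCAN-domain genes. The PRDM, SP and ZFP medians rest on 4 or 5 genes each, and each of these groups, like the SCAN-domain genes, has 1 gene at the ceiling of 69.3 h in STM2457. Without those genes the medians were 0.43 for PRDM, 0.24 for SP and 0.19 for ZFP, below that of ZBTB. At the ceiling in STM2457 were 4 of the 54 genes, beside 980 of all 8996. In DMSO it held 0 of the 54, beside 229 of all 8996, so a ceiling in STM2457 is not particular to these genes.

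Of the 20 ZBTB genes, 16 had a longer half-life in STM2457 by any amount. Past 1.5-fold, 10 were longer-lived (50%) and 2 shorter-lived (10%), beside 28.5% and 24.9% of all genes. The other 8 were within the range. Among all genes with 10 or more far motifs, as 19 of the 20 have, 45.7% were longer-lived and 10.5% shorter-lived. ZBTB24 (ENSG00000112365.4, chromosome 6, 109462594 to 109483237, GRCh38), which is mutated in a syndrome of immunodeficiency and unstable centromeres, had the largest ratio. Its half-life was 8.16 h in STM2457 and 1.41 h in DMSO, 5.78-fold longer (log2 2.53). The gene overlaps MICAL1 on the same strand, so reads of the pair could be mixed. ZBTB2, on chromosome 6 from 151364117 to 151391548, codes for a repressor of the cell cycle inhibitor gene CDKN1A, and followed with 5.49 h in STM2457 and 1.44 h in DMSO (log2 1.94). ZBTB14, a repressor first found at the MYC promoter, had 1.85 h in STM2457 and 0.748 h in DMSO (log2 1.30). These 3 mRNAs thus lie far apart in STM2457 although all were under 1.5 h in DMSO.

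ZBTB10, known as a repressor of SP genes, had 3.05 h in STM2457 and 1.36 h in DMSO (log2 1.16). ZBTB21, which binds ZBTB14, had 2.19 h in STM2457 and 1.08 h in DMSO (log2 1.02). ZBTB43 had the shortest DMSO half-life of the ZBTB genes, with 1.08 h in STM2457 and 0.561 h in DMSO (log2 0.94). The other longer-lived ZBTB genes lay between log2 ratios of 0.61 and 0.77. They were ZBTB11, needed for nuclear genes of mitochondrial proteins, ZBTB34, ZBTB7A, a repressor of the fetal globin genes, and ZBTB20, a repressor of the alpha-fetoprotein gene. ZBTB20 had the shortest half-life of the ZBTB genes in STM2457, with 1.06 h in STM2457 and 0.697 h in DMSO.

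The 8 ZBTB genes within 1.5-fold included ZBTB33 (Kaiso, which binds methylated CpG), with 2.75 h in STM2457 and 2.21 h in DMSO (log2 0.32). ZBTB18, a repressor in developing neurons, lay highest among them at a log2 ratio of 0.54, and ZBTB40 lowest at -0.09. ZBTB39 stood at 1.36 h in STM2457 and 1.34 h in DMSO (log2 0.02) with 51 far motifs, the second highest number of the ZBTB genes after the 72 of ZBTB21. The shorter-lived pair was ZBTB47, with 1.97 h in STM2457 and 3.08 h in DMSO (log2 -0.65), and ZBTB8OS, with 16.5 h in STM2457 and 25.3 h in DMSO (log2 -0.62). ZBTB8OS, without fingers and with 0 far motifs, thus also stands apart from the other ZBTB-named genes in its long half-life. Its locus overlaps ZBTB8A on the opposite strand, and how strand was treated in the counting is not stated. Without ZBTB8OS the ZBTB median was 0.61.

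**Figure D2:**
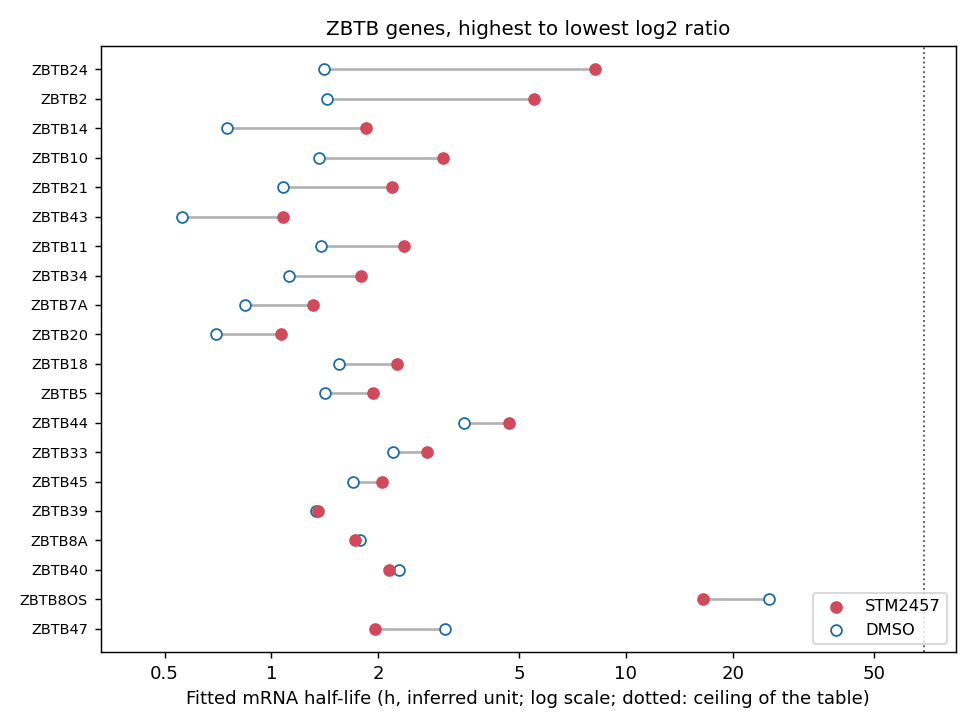
Fitted half-life of each ZBTB gene in STM2457 (filled) and DMSO (open) on a log scale in hours, sorted by their ratio. ZBTB24 reaches 8.16 h in STM2457 against 1.41 h in DMSO, and ZBTB8OS lies apart from the others at 16.5 h in STM2457 and 25.3 h in DMSO.

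Of the 14 SCAN-domain genes, 4 were longer-lived (28.6%, beside 28.5% of all genes) and 2 shorter-lived (14.3%, beside 24.9%). The other 8 were within the range, and 6 of the 14 had ratios above 0. ZSCAN29 (ENSG00000140265.12, chromosome 15, 43358172 to 43371025) was at the ceiling of 69.3 h in STM2457 and at 1.82 h in DMSO, so its log2 ratio of 5.25 is set by the ceiling. ZKSCAN2 had 4.79 h in STM2457 and 1.40 h in DMSO (log2 1.77), ZKSCAN5 4.92 h in STM2457 and 1.72 h in DMSO (log2 1.52), and ZSCAN5A 6.62 h in STM2457 and 2.60 h in DMSO (log2 1.35). A gap separates these 4 from the next gene, ZSCAN26, at a log2 ratio of 0.48. ZSCAN9 was lowest, with 0.924 h in STM2457 and 1.48 h in DMSO (log2 -0.68), and ZKSCAN1, whose gene also yields an abundant circular RNA, had 1.96 h in STM2457 and 3.07 h in DMSO (log2 -0.64). ZKSCAN3, a repressor of autophagy genes, had 1.30 h in STM2457 and 1.89 h in DMSO (log2 -0.54), inside the range. ZKSCAN4, the shortest-lived of them in both treatments, had 0.841 h in STM2457 and 1.14 h in DMSO (log2 -0.44). The KRAB-bearing ZKSCAN genes had a median of -0.25 and the ZSCAN genes one of 0.14, with both signs in each.

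On chromosome 6, the 5 SCAN-domain genes ZKSCAN8, ZSCAN9, ZKSCAN4, ZSCAN26 and ZKSCAN3 lie between 28141910 and 28369177. None of these 5 was longer-lived, where 28.5% of all genes were, so few would be looked for among so few genes. Their log2 ratios had a median of -0.44 and ran from -0.68 (ZSCAN9) to 0.48 (ZSCAN26). The 9 on other chromosomes had a median of 0.29, and all 4 longer-lived genes were among them. Neighbours elsewhere differed in some cases and not in others. On chromosome 7, ZKSCAN5 had a log2 ratio of 1.52, ZSCAN21 of 0.29 and ZKSCAN1 of -0.64. On chromosome 13, KLF12 had 1.85 and KLF5 0.11, while ZBTB43 (0.94) and ZBTB34 (0.68) on chromosome 9 were both longer-lived. This grouping by position was made with the values known.

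Of the 7 KLF genes, 3 were longer-lived (42.9%, beside 28.5% of all genes), none shorter-lived (beside 24.9%) and 4 within the range. KLF12 (ENSG00000118922.17, chromosome 13, 73686089 to 73995056), a repressor of the AP-2 alpha gene, had 7.98 h in STM2457 and 2.21 h in DMSO (log2 1.85). KLF3, like KLF12 a repressor that recruits CtBP, had 3.22 h in STM2457 and 1.84 h in DMSO (log2 0.81). Of 3 CtBP-binding KLF genes listed, these 2 were in the table. Both were longer-lived, though they carry 9 and 5 far motifs, below the KLF median of 10. Among all genes with a DMSO half-life from 1 to 3 h, as both have, 41.1% were longer-lived, so 2 genes do not characterise the group. KLF11, which recruits SIN3A and is mutated in a form of diabetes of the young, had 1.92 h in STM2457 and 1.24 h in DMSO (log2 0.63). Of 6 SIN3A-binding genes listed, 3 were in the table, and the other 2 were within the range. KLF9, induced by glucocorticoids, had 1.24 h in STM2457 and 1.12 h in DMSO (log2 0.15), and KLF16 had 3.57 h in STM2457 and 3.74 h in DMSO (log2 -0.07). The 2 activator-type genes in the table, of 6 listed, were the shortest-lived KLF genes in both treatments and differed little between treatments. KLF5, a factor of proliferating epithelium, had 0.859 h in STM2457 and 0.799 h in DMSO (log2 0.11), and KLF6, an early response gene, had 0.392 h in STM2457 and 0.428 h in DMSO (log2 -0.13). KLF6 was the shortest-lived of all 54 in both treatments.

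Some SP factors compete for the same GC boxes, and the 4 SP mRNAs took different courses. SP1 (ENSG00000185591.10, chromosome 12, 53380176 to 53416446) was at the ceiling of 69.3 h in STM2457 and at 1.70 h in DMSO, the highest ratio of the 54 (log2 5.35, set by the ceiling). SP3, which binds the same boxes and can activate or repress, had 4.84 h in STM2457 and 2.28 h in DMSO (log2 1.08). SP4, a neuronal member, had 1.43 h in STM2457 and 1.21 h in DMSO (log2 0.24), within the range. SP2 had 2.56 h in STM2457 and 4.23 h in DMSO (log2 -0.72), the lowest ratio of the 54. The order SP1, SP3, SP4 and SP2 is also that of their far motifs, which number 36, 29, 28 and 12, over 4 genes.

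Of the 4 PRDM genes, 2 were longer-lived (50%, beside 28.5% of all genes), none shorter-lived (beside 24.9%) and 2 within the range. PRDM4 (ENSG00000110851.12, chromosome 12, 107732866 to 107761272), an effector of the p75 neurotrophin receptor, was at the ceiling of 69.3 h in STM2457 and at 2.12 h in DMSO (log2 5.03, set by the ceiling). PRDM16, the regulator of brown fat fate, had 4.23 h in STM2457 and 1.92 h in DMSO (log2 1.14). PRDM2, a histone H3 lysine methyltransferase, had 1.89 h in STM2457 and 1.40 h in DMSO (log2 0.43) and carries 89 far motifs, the most of the 54. PRDM6, a repressor in smooth muscle, had 1.32 h in STM2457 and 1.47 h in DMSO (log2 -0.16) with 6 far motifs. The gene richest in motifs was therefore not past 1.5-fold.

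Among the 5 ZFP genes, 3 were longer-lived (60%, beside 28.5% of all genes), none shorter-lived (beside 24.9%) and 2 within the range. ZFP64, a regulator of KMT2A in leukaemia cells, was at the ceiling of 69.3 h in STM2457 and at 3.12 h in DMSO (log2 4.47, set by the ceiling). ZFP62 had 5.95 h in STM2457 and 2.49 h in DMSO (log2 1.26), and ZFP91, a ubiquitin ligase, had 4.16 h in STM2457 and 2.65 h in DMSO (log2 0.65), with an overlapping read-through gene, ZFP91-CNTF, on its strand. ZFP41 (log2 -0.28) and ZFP90 (log2 -0.55, 2.15 h in STM2457 and 3.14 h in DMSO) had ratios below 0.

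**Figure D3:**
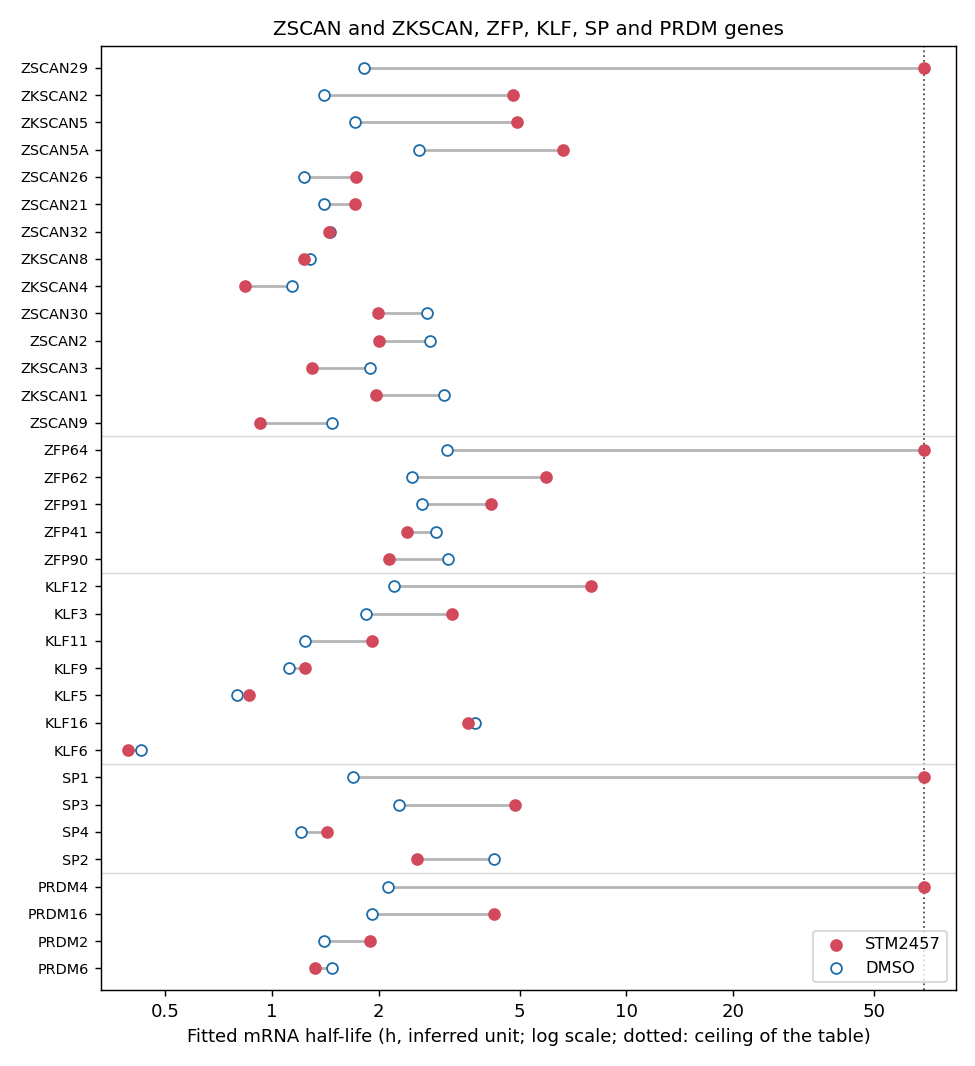
Fitted half-life of each SCAN-domain, ZFP, KLF, SP and PRDM gene in STM2457 (filled) and DMSO (open) on a log scale in hours, sorted by ratio within each group; the dotted line is the ceiling of 69.3 h. ZSCAN29, ZFP64, SP1 and PRDM4 are at the ceiling in STM2457 only, where 980 of all 8996 genes are at the ceiling in STM2457.

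Fitted synthesis rates tended the other way. The log2 ratio of synthesis, STM2457 over DMSO, was below 0 for 39 of the 54, with a median of -0.19 beside -0.06 over all genes. It was lower past 1.5-fold for 11 and higher past 1.5-fold for ZBTB8OS alone (1.36), where 13.2% of 8993 genes were lower and 12.6% higher. The lowest ratios were -1.68 for PRDM4, -1.34 for ZBTB14 and -1.04 for PRDM16. Among the KLF genes the longer-lived KLF12 had -0.94, while KLF9 had 0.48 and KLF6 0.45. Half-life and synthesis ratios of the 54 ran against each other (Spearman rho -0.67, n = 54, beside -0.35 over 8993 genes). Both come from the same fit, so they share its error.

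A synthesis rate divided by a decay rate gives the steady-state abundance a fit implies. STM2457 over DMSO, this had a median of 1.24-fold for the 54 and 0.965-fold for all genes. It was higher past 1.5-fold for 14 of the 54, near the 28.3% of 8993 genes, and lower past 1.5-fold for 3, where 24.7% of genes were lower. For ZBTB14 a 2.47-fold longer half-life and a lower synthesis rate gave 0.975-fold, and PRDM16 came to 1.08-fold. The fits of 6 members imply more RNA in STM2457 than 6 h of synthesis without decay could add to the DMSO level, where 23.4% of all genes exceed that bound. The 6 were SP1 (28.6-fold, against a bound of 2.72-fold), ZSCAN29 (27.9 against 2.67), ZFP64 (11.6 against 1.69), PRDM4 (10.2 against 1.61), ZBTB24 (3.83 against 2.95) and ZBTB8OS (1.68 against 1.42). For these 6, the implied steady-state level thus could not be reached from the DMSO level within 6 h at the fitted synthesis rate. The bound concerns that level and not the half-life ratio itself. ZBTB2, at 3.58-fold against a bound of 3.71-fold, and KLF12, at 1.88-fold against 1.98-fold, lay just under it.

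**Figure D4:**
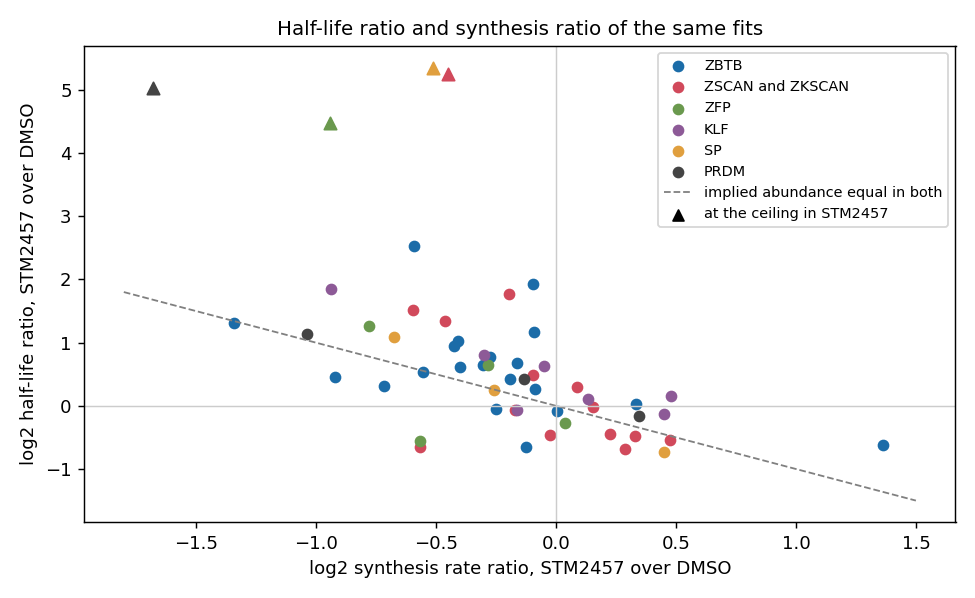
Log2 half-life ratio against log2 synthesis ratio of the 54 genes, both STM2457 over DMSO and from the same fits; triangles are at the ceiling in STM2457. Along the dashed line both changes cancel, as they nearly do for ZBTB14 at 1.30 and -1.34.

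The mRNAs share features of gene structure with other zinc-finger genes. Their longest coding exon had a median of 955.5 nt, beside 267 nt over the 8501 genes with a coding sequence, and 7 have their whole coding sequence in 1 exon: ZBTB5, ZBTB21, ZBTB33, ZBTB34, ZBTB39, ZBTB43 and ZFP41. Far coding motifs had a median of 22.5 in the 54 and 3 in all genes, and 48 of the 54 have 10 or more. The 165 numbered ZNF genes of the table were similar, with medians of 1163 nt for the longest coding exon and 19 far motifs, and a median log2 half-life ratio of 0.38. The KLF genes have the fewest, with a median of 10, beside 28.5 for ZBTB and for SP, 22.5 for the SCAN-domain genes, 24 for PRDM and 29 for ZFP. The finger-coding stretches themselves hold 224 of the 1385 far motifs, or 1.71 per 100 nt, beside 2.02 per 100 nt in the rest of the far coding sequence, so the motifs were not denser in the fingers.

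Members with more far motifs had higher ratios. The 17 with 30 or more had a median log2 ratio of 0.77, with 15 above 0. The 19 with 20 to 29 had 0.48, with 14 above 0, and the 18 with fewer had -0.06, with 7 above 0. Spearman's rho between motif number and log2 ratio was 0.41 (Pearson's r 0.27, n = 54), and 0.38 over the 50 below the ceiling, beside 0.26 over 8501 genes. Motif number grows with coding length, and related genes share sequence, so these points are not independent. The number of finger matches (rho -0.02, n = 54) and of ATTTA elements in the annotated 3′ UTR (rho 0.11, n = 54) had weaker correlations with the ratio. KLF12, with 9 motifs and a log2 ratio of 1.85, and ZFP90 and ZSCAN2, with 40 and 35 motifs and ratios of -0.55 and -0.48, lie off this order.

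**Figure D5:**
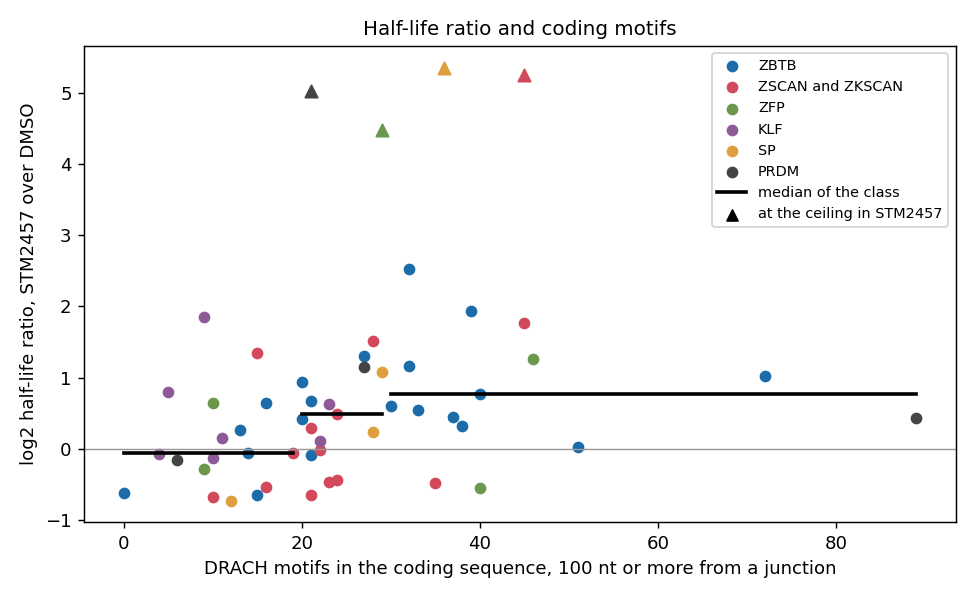
Log2 half-life ratio, STM2457 over DMSO, against the number of coding DRACH motifs at least 100 nt from a junction, for the 54 genes by subfamily. Black bars are the medians of the classes under 20 (-0.06), 20 to 29 (0.48) and 30 or more motifs (0.77); triangles are at the ceiling in STM2457.

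The ratio also differed between ranges of DMSO half-life, its denominator, but not in a steady order. Across the 54, the 2 were weakly related (Spearman rho -0.22, Pearson's r -0.15, n = 54). The 26 members under 1.5 h in DMSO had a median log2 ratio of 0.47, beside 0.49 for the 549 genes in that range. The 15 from 1.5 to 2.5 h had 1.08, beside 0.37 for 1133 genes, and the 13 at or above 2.5 h had -0.47, beside -0.14 for 7314 genes. With these cuts, the members lay farthest above other genes in the middle range, which holds SP1, ZSCAN29, PRDM4, KLF12 and SP3. Of its 15 members, 3 are at the ceiling in STM2457, beside 67 of the 1133 genes. The wider range from 1 to 3 h had 0.51 for members, beside 0.36.

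Genes of the same domain families under other symbols were read from the same table. Of 7 BTB zinc-finger genes with other names, 5 were in the table, with a median log2 ratio of 0.80, 3 longer-lived and none shorter-lived. HIC2, a repressor of BCL11A, had 4.66 h in STM2457 and 1.48 h in DMSO (log2 1.65), and BCL6B, a relative of the germinal centre repressor BCL6, had 0.852 h in STM2457 and 1.24 h in DMSO (log2 -0.54). Of 15 SCAN-domain genes with other names, 10 were present, with a median of 0.46 and 5 longer-lived, none shorter-lived, against -0.04 for the ZSCAN and ZKSCAN genes. SCAND1, a SCAN protein without fingers, had 16.1 h in STM2457 and 5.36 h in DMSO (log2 1.59). ZNF213 was at the ceiling in STM2457 and at 2.92 h in DMSO, and MZF1, a myeloid factor, was lowest with 2.53 h in STM2457 and 3.49 h in DMSO (log2 -0.46). The SCAN-domain genes under other names thus had the higher median, but both sets overlapped widely. Quartiles were -0.14 and 1.46 for these 10, and -0.48 and 1.13 for the 14 ZSCAN and ZKSCAN genes. Ratios below 0 were held by 4 of the 10 and by 8 of the 14. Past 1.5-fold, the background of the table was 28.5% upward and 24.9% downward. The difference between the sets was not tested. Of 7 KLF-like and PRDM relatives, WT1 (log2 0.52), MECOM (0.46) and ZNF408 (0.24) were present, each within 1.5-fold.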

How the data were processed

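Per the labels' protocols, iodoacetamide-treated RNA was made into 3′ mRNA libraries with the Lexogen QuantSeq forward kit. Per the submitters' processing notes, the tools were STAR 2.7.8a and FastQC 0.11.9 and the build GRCh38.p12. What fitted the kinetics, which genes were filtered and which libraries entered a fit is not stated. The labels say that 1 library had less RNA input than the others; its sample and treatment could not be told, so its part in either fit was not tested. For every gene the authors deposited a fitted half-life and synthesis rate in STM2457 and in DMSO, with the log2 ratios. Hours are inferred because half-lives stop at 69.3, which is ln 2 over 0.01. Depth is unknown. The labels do not say whether the 3 samples of a group were separate cultures.

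Longer-lived and shorter-lived genes (past 1.5-fold) were counted beside all genes, genes with a DMSO half-life from 1 to 3 h, genes with 10 or more far motifs, and both. No test was made, and correlations are descriptions. The abundance bound used 6 h of synthesis, the sum of 3 h of treatment and 180 min of label. All 54 identifiers matched GENCODE release 29 without their version, 16 with it; 8982 of 8996 matched in the table. The transcript with the longest complete coding sequence was used, so exon, motif and 3′ UTR features rest on that choice. C2H2 matches were made on its translation. Motif and finger searches were tested on made-up sequences. The last 500 nt of 0 of 54 members matched another gene over 100 nt at 98% identity. On the same strand, 18 members overlap another annotated gene.

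Members, lists and groupings were chosen with earlier results of these data known. Every member may be named; each list's highest and lowest log2 ratio, and all KLF, SP and PRDM members, are given. The software was Matplotlib 3.10.9, SciPy 1.17.1, pandas 2.3.3 and NumPy 2.4.6 under Python 3.11.15. Other settings tried concern the half-life range, the ceiling, overlapping genes, the size rule, the summary and the set of members.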

Additional observations from a re-analysis of the deposited data

How the results depend on the processing

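Under the alternatives, the median log2 half-life ratio stayed above 0 for the 54 genes and for each subfamily but the SCAN-domain genes, whose median of -0.04 became a mean of 0.52, with ZSCAN29 at the ceiling. With means, the values were 0.76 for all 54, 0.48 for KLF, 1.61 for PRDM, 1.49 for SP and 1.11 for ZFP. With both half-lives between 0.5 and 24 h, medians were 0.39 for KLF, 0.43 for PRDM, 0.24 for SP and 0.19 for ZFP. Without members at the ceiling, they were 0.43 for PRDM, 0.24 for SP and 0.19 for ZFP. Without members that overlap another gene on the same strand, the median was 0.30 over 36 members, of which 14 were longer-lived, and it was 0.43 for PRDM, 1.08 for SP and 1.26 for the 1 ZFP gene kept. A 2-fold rule left 16 longer-lived and 0 shorter-lived. Of 43 recomputed values, 24 moved by under 0.1 in the median or by at most 1.5 times in a count. Among them are the 16, which lies at that limit, and those without ZBTB8OS, an alternative chosen after seeing the data. Another 18 moved by more, and 1, the SCAN-domain mean, had the other sign. No paired analysis was possible because the table holds no values per sample. For the same reason no sample could be left out, the spread between samples is unknown, and depth cannot be given.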

Other observations

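Proteins that these factors recruit were read from the same table. Of 23 corepressors, coactivators and adaptors listed, 21 were present, with a median half-life of 6.16 h in STM2457 and 5.01 h in DMSO, above those of the 54 genes in both treatments. Of these, 7 were longer-lived and 7 shorter-lived (33.3% each, beside 28.5% and 24.9% of all genes). The other 7 lay within 1.5-fold, beside 46.6% of all genes. The 21 had a median log2 ratio of -0.01, equal to that of all genes. CREBBP, a histone acetyltransferase that SP and KLF factors recruit, was highest with 7.59 h in STM2457 and 2.11 h in DMSO (log2 1.84). The CtBP corepressor gene CTBP1 was lowest, with 6.30 h in STM2457 and 13.8 h in DMSO (log2 -1.13). CTBP2, the other CtBP gene, was within 1.5-fold (log2 -0.20). The fits of 5 of the 21 (CREBBP, SETDB1, CHD3, HDAC1 and CHD4) imply more RNA in STM2457 than 6 h of synthesis without decay could add, where 23.4% of all genes exceed that bound.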
